A study of Homo sapiens with 15 samples.

Results

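The genes described here are 37 members of the Fanconi anaemia and homologous recombination pathways, chosen by name and looked up in the array annotation. A member was measured where a probe set named it alone, which held for 29 of the 37, out of 22392 genes measured in that way. The other 8 gave no value of their own: *RAD51D*, *RAD54B* and *ATRIP* lie on probe sets that they share with neighbouring genes, and *FANCA*, *FANCD2*, *BRCA2*, *XRCC2* and *RBBP8* were not analysed here.

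Homologous recombination repairs a broken chromosome by copying the sister chromatid, so it works after that chromatid has been made, in the S and G2 phases. The Fanconi pathway deals with crosslinks between the DNA strands: a core complex attaches ubiquitin to the FANCD2 and FANCI pair, nucleases open the lesion, and recombination completes the repair. Many genes of both pathways are known to be transcribed mainly in dividing cells, while others are transcribed throughout, and cells of the gut lining lose the former when they stop dividing and differentiate.

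Gene expression was measured on 15 arrays, 3 for each of 5 groups. HT29-MTX-E12 (mucus-producing cells derived from HT29 colon carcinoma) and Caco-2 (colon carcinoma cells that take on enterocyte traits after confluence) grew on Transwell membranes for 15 days, either under static conditions, with 275 μL of medium above and 1000 μL below the membrane, or with 75 μL and 850 μL on a shaker at 65 rpm. The latter is the semi-wet, mechanically stimulated culture abbreviated as SWMS. LS174T (mucin-producing colon carcinoma cells) grew under static conditions in ordinary wells, and differences from it cannot be told apart from effects of the surface. Passages ran from 3 to 21 for HT29-MTX-E12, from 15 to 27 for Caco-2 and from 17 to 19 for LS174T cells. No gene was altered and no agent was added in any group. Levels are RMA values, which are log2 intensities, and a difference of 1 is a doubling. They can be compared for one gene between arrays but not between genes.

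Over the arrays, the median log2 level lay between 3.72 and 3.85, and over all genes the median difference under SWMS was -0.02 in either line. The Caco-2 SWMS array of batch 1 stood apart (r of 0.987 with the mean of its group, at least 0.993 for the other 14 arrays), and the Caco-2 counts are given with and without it. Of 10 epithelial and colon markers, *CDX1* had a mean under 4 in Caco-2 cells under SWMS conditions (3.85) and *KRT20* in LS174T cells (3.79), and the others had higher means in every group, such as *VIL1* at 9.69 to 10.96. Under SWMS conditions *CDH17* fell in HT29-MTX-E12 cells (-1.12, adjusted p = 5.4e-06), and *KRT20* (-2.49, adjusted p = 9.49e-08), *EPCAM* and *VIL1* fell in Caco-2 cells, and the part of these markers in the results below was not tested. Of 5 fibroblast markers, *COL1A1* had means of 4.55 to 5.80. *LUM* in static Caco-2 cells (4.5) and *PDGFRB* in Caco-2 cells under SWMS conditions (4.64) also exceeded 4. *LUM* fell under SWMS conditions in Caco-2 cells (-0.65, adjusted p = 0.049), and the part of this list was not tested. All 5 endothelial markers had means under 4, and the leukocyte marker *PTPRC* had means of 1.63 to 1.97, whereas *CD68*, listed as a leukocyte marker, had means of 9.49 to 10.44 in these lines. The mean of the leukocyte list was 4.76 to 5.05 on the static and 4.33 to 4.49 on the SWMS arrays of Caco-2 cells, with *CD14* and *CD68* lower there, and its part was not tested either.

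Before the levels, the promoters of the members are shown, because 2 motifs known from cell cycle genes can be looked for in them: the site of E2F factors, which switch genes on at the start of S phase, and the cell cycle homology region (CHR), bound by the complexes that govern G2 and M phase genes. RefSeq windows of 300 bases around each start (GRCh38.p14, 250 bases before to 50 after) were found for 26 of the 29 measured members. Both strands were searched for TTTGGCGC, TTTCCCGC, TTTGCCGC and TTTCGCGC (E2F type) and for TTTGAA and TTCGAA (CHR type), of which none contains another. The following stretches hold a match and end before the gene's start, with the match in capitals.
FANCC, chr9:95317722-95317781, minus strand, E2F type: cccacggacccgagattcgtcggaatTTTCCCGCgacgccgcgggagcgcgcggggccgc
RMI1, chr9:83980745-83980804, plus strand, E2F type on the opposite strand: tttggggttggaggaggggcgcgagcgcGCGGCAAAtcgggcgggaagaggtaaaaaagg
USP1, chr1:62436951-62437010, plus strand, CHR type on the opposite strand: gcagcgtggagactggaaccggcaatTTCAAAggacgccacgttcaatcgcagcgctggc
UBE2T, chr1:202342056-202342115, minus strand, CHR type: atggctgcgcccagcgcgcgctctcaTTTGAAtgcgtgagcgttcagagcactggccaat
The *FANCC* match lies 46 bases before the start, that of *RMI1* 32, that of *USP1* 72 and that of *UBE2T* 153. Not printed are stretches of *POLQ* and *BRIP1*, with CHR type matches 230 and 240 bases before the start. A CHR type match of *FANCC*, farther from the start than its E2F type match, is not printed either.

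An E2F type match was present for 3 of the 26 members (*FANCC*, *EXO1* and *RMI1*), or 11.5%, beside 3.99% of 27305 genes with a window. A CHR type match was present for 5 (*FANCC*, *UBE2T*, *USP1*, *BRIP1* and *POLQ*), or 19.2% beside 19.5%. For scale, 20 of 36 S phase genes held an E2F type match and 23 of 29 G2 and M phase genes held a CHR type match. The box CCAAT, often found beside a CHR, was present for 15 of the 26 members (57.7% beside 39.7%). All 5 members with a CHR type match belong to the 16 that were higher under SWMS, described next, which make up 15 of the 26 members with a window (5 of 15, or 33.3%, beside 19.5% of all genes). A match is only a run of letters in this window and no evidence of binding.

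Under SWMS conditions, HT29-MTX-E12 cells had higher levels of most of these genes. Of the 29 measured members, 16 were higher at an adjusted p under 0.05 (55.2%, against 3.66% of all genes) and 0 were lower (1.87% of all genes). The median log2 difference of the members was 0.80. At an unadjusted p under 0.05, limma found 23 members, none of them lower (9.56% of all genes were higher and 8.05% lower), and the intensity based moderated statistic (IBMT) of the study's methods gave the same 16 genes after adjustment.

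The members were separated by this comparison. The 16 that rose are called coupled below, since cell cycle genes rose in the same comparison: 38 of 40 S phase genes, with a median of 1.04, and all 32 G2 and M phase genes, with a median of 2.21. Members that did not pass the test and whose 95% interval stayed within a 1.5-fold change (0.58 on the log2 scale) either way are called constant, and there were 7 of them. For the remaining 6, called undecided, the interval allowed a larger change, and in each of them it lay wholly above 0. Among the constant members, the interval of *FANCL* (0.11 to 0.50) also lay above 0. Closest to the threshold were *FANCC* on the inside (adjusted p = 0.0198) and *RMI1* and *FANCL* on the outside (0.0963 and 0.0975), and *FANCL* was called (0.044) once dim probe sets were left out. As the classes come from the HT29-MTX-E12 difference, the values of that line describe them. The Caco-2 levels are no part of that difference, but all 15 arrays entered its error, so the classes are not independent of them: 17 members were called without the Caco-2 SWMS array of batch 1, with *RMI1* added, and 15 with the line fitted alone. In RNA from a whole culture, a larger share of dividing cells and more RNA per cell cannot be told apart.

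**Figure D1:**
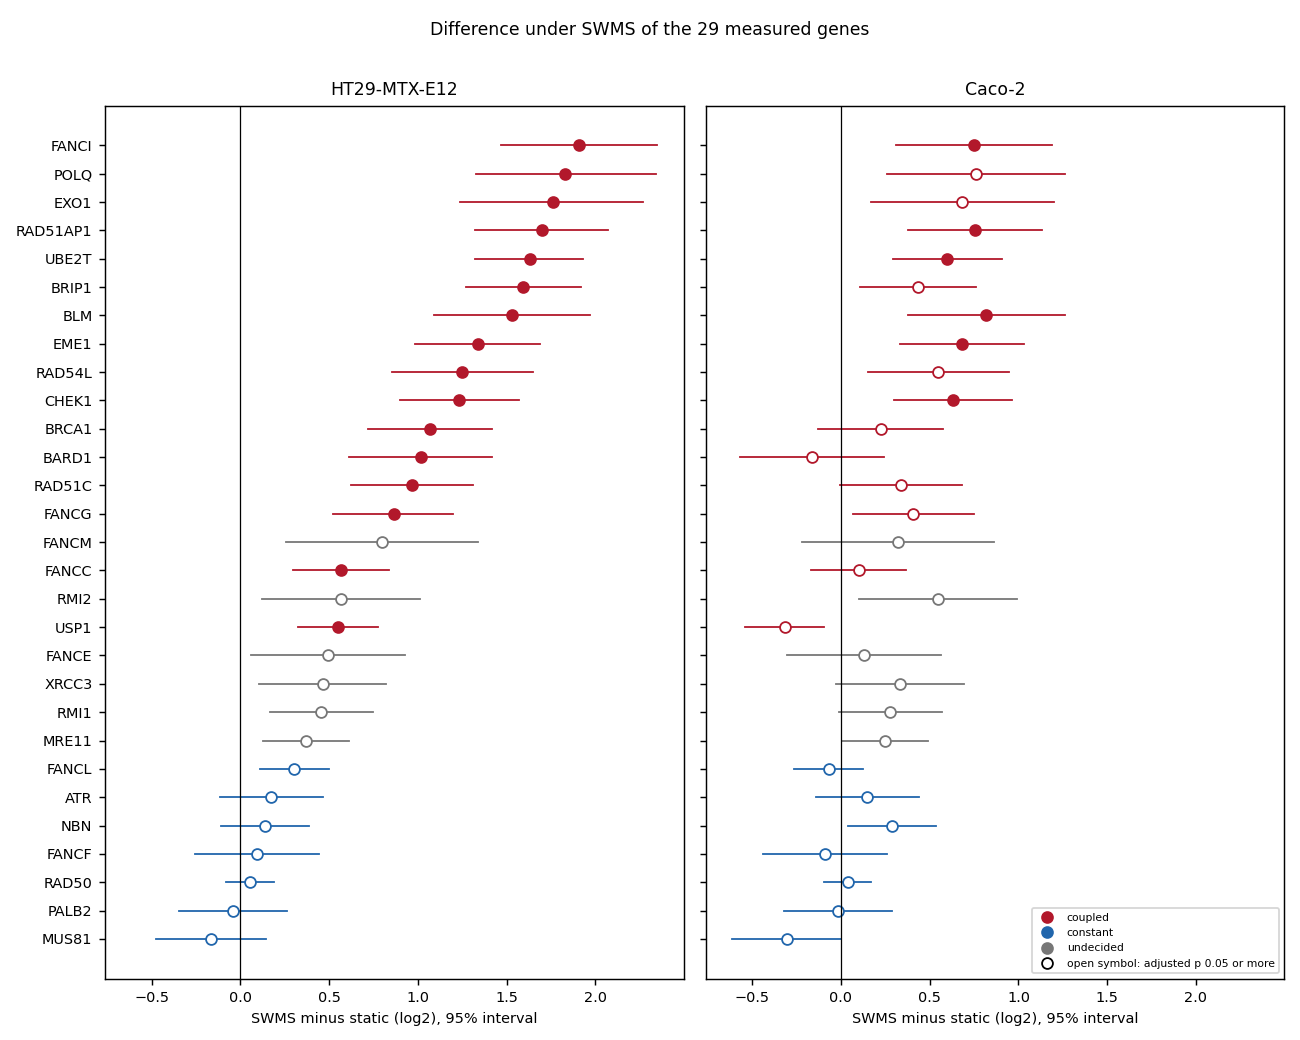
Difference between SWMS and static conditions (log2, x axis) for each of the 29 measured genes (y axis), in HT29-MTX-E12 on the left and Caco-2 on the right, with the 95% interval as a line and filled symbols at an adjusted p under 0.05. In HT29-MTX-E12 cells 16 genes have filled symbols, from *USP1* at 0.55 to *FANCI* at 1.91, and in Caco-2 cells 6 have.

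Among the Fanconi genes, the largest difference was that of *FANCI*, the partner of FANCD2 in the pair that receives ubiquitin. Its levels were 6.88, 6.75 and 6.30 on the static and 8.51, 8.53 and 8.62 on the SWMS arrays of HT29-MTX-E12 cells, so the groups were far apart and the SWMS arrays closer to each other than the static ones. This is a log2 difference of 1.91 (SE 0.20, 3.76-fold, adjusted p = 5.7e-05). *UBE2T*, the enzyme that hands ubiquitin to that pair, had 7.08, 6.89 and 7.22 under static and 8.76, 8.67 and 8.65 under SWMS conditions (1.63, SE 0.14, 3.09-fold, adjusted p = 1.03e-05). *USP1*, which takes the ubiquitin off again, moved less, from 8.39, 8.40 and 8.28 to 9.03, 8.87 and 8.83 (0.55, SE 0.10, adjusted p = 0.00748). The enzymes that add and remove the ubiquitin were thus both higher, but by 3.09-fold and 1.46-fold.

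The core complex, which makes up the ubiquitin ligase, was split only by whether its subunits passed the test. With *UBE2T* counted, all 7 measured genes had a difference above 0, and 6 had an unadjusted limma p under 0.05. Subunits were not tested against each other. *FANCG* (0.86, SE 0.16, adjusted p = 0.00579) and *FANCC* (0.57, SE 0.12, adjusted p = 0.0198), both subunits without ligase activity, were higher. *FANCL*, the subunit with ligase activity, had 7.91, 7.88 and 8.01 under static and 8.18, 8.24 and 8.29 under SWMS conditions, with a difference of 0.30 that missed the threshold although the arrays did not overlap. *FANCF* had a difference of 0.09 (95% interval -0.26 to 0.44). *FANCE* (0.49, adjusted p = 0.284) and the translocase *FANCM*, which brings the complex to DNA (0.80, adjusted p = 0.125), were undecided, and *FANCM* was dim, with a static mean of 3.26 ± 0.25 (SD, n = 3). The *FANCC* call was lost when either of 2 static or either of 2 SWMS arrays of this line was left out, or the line was fitted alone (adjusted p of 0.053 to 0.0958).

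Of the BRCA group, *BRCA1*, *BARD1* and *BRIP1* rose and *PALB2* did not. *BRCA1* had 6.45, 6.44 and 6.36 under static and 7.38, 7.60 and 7.49 under SWMS conditions (1.07, SE 0.16, 2.1-fold, adjusted p = 0.00146). *BARD1*, the obligate partner of BRCA1 in its ubiquitin ligase, moved by about the same amount (1.02, SE 0.19, adjusted p = 0.00622), but its static arrays spread from 4.80 to 5.67. *BRIP1*, a helicase bound by BRCA1, went from 6.38, 6.05 and 5.97 to 7.64, 7.72 and 7.82 (1.59, SE 0.15, 3.01-fold, adjusted p = 1.97e-05). *PALB2*, which links BRCA1 to BRCA2, had 6.53, 6.23 and 6.67 and then 6.51, 6.31 and 6.47, with full overlap (-0.04, 95% interval -0.35 to 0.26).

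*RAD51AP1* and *RAD54L*, which act in the strand invasion step of recombination, both rose. *RAD51AP1* had 5.06, 4.78 and 4.39 under static and 6.51, 6.44 and 6.37 under SWMS conditions (1.70, SE 0.17, 3.25-fold, adjusted p = 3.89e-05). *RAD54L* reached 6.83, 6.83 and 6.82 under SWMS from 5.86, 5.46 and 5.40 (1.25, SE 0.19, adjusted p = 0.00113). *RAD51C*, which acts in the same pathway, rose (0.97, SE 0.16, adjusted p = 0.00273), and its partner *XRCC3* had a difference of 0.46 (adjusted p = 0.202).

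End resection, the trimming of a break before strand invasion, was likewise split only by which genes passed the test. These genes were not tested against each other either. The nuclease *EXO1* had 6.16, 5.92 and 5.69 under static and 7.66, 7.72 and 7.67 under SWMS conditions (1.76, SE 0.24, 3.38-fold, adjusted p = 0.000544). The 3 subunits of the MRN complex, which senses breaks and starts the trimming, did not pass the test. *RAD50* had 8.88, 9.02 and 8.87 and then 8.97, 8.99 and 8.97, the narrowest interval of all members (0.05, 95% interval -0.08 to 0.19). *NBN* had a difference of 0.14 (-0.11 to 0.39) and was constant as well, and *MRE11* had 0.37 (0.13 to 0.61, adjusted p = 0.107) and was undecided, its upper bound just past the limit.

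The enzymes that take recombination intermediates apart differed within their own complexes in which genes passed the test. Partners were not tested against each other. *EME1* and *MUS81* form one nuclease, and *EME1* rose from 5.38, 5.12 and 5.09 to 6.64, 6.55 and 6.41 (1.34, SE 0.16, 2.52-fold, adjusted p = 0.000208), while *MUS81*, the catalytic subunit, had 6.82, 6.88 and 6.82 and then 6.64, 6.71 and 6.69 (-0.17, 95% interval -0.47 to 0.14). *BLM*, the helicase that works on such intermediates together with RMI1 and RMI2, rose from 5.35, 5.26 and 5.19 to 6.95, 6.74 and 6.69 (1.53, SE 0.20, 2.88-fold, adjusted p = 0.000463). Its partners had differences of 0.46 (*RMI1*, 95% interval 0.166 to 0.745, adjusted p = 0.0963) and 0.56 (*RMI2*, 0.119 to 1.01, adjusted p = 0.212). Both intervals lay above 0, although neither gene passed the test.

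In the checkpoint pair, *CHEK1* rose from 6.63, 6.27 and 6.31 to 7.73, 7.54 and 7.65 (1.23, SE 0.16, 2.35-fold, adjusted p = 0.000262). *ATR*, the kinase that activates it, had 6.88, 6.88 and 6.87 and then 7.02, 7.03 and 7.11 (0.17, 95% interval -0.12 to 0.47). *POLQ*, the polymerase of theta-mediated end joining, a backup route, went from 6.69, 6.05 and 5.92 to 8.07, 8.07 and 8.02 (1.83, SE 0.23, 3.56-fold, adjusted p = 0.000309). Its 3 SWMS arrays nearly coincided, whereas the static array of batch 1 lay above the other two.

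**Figure D2:**
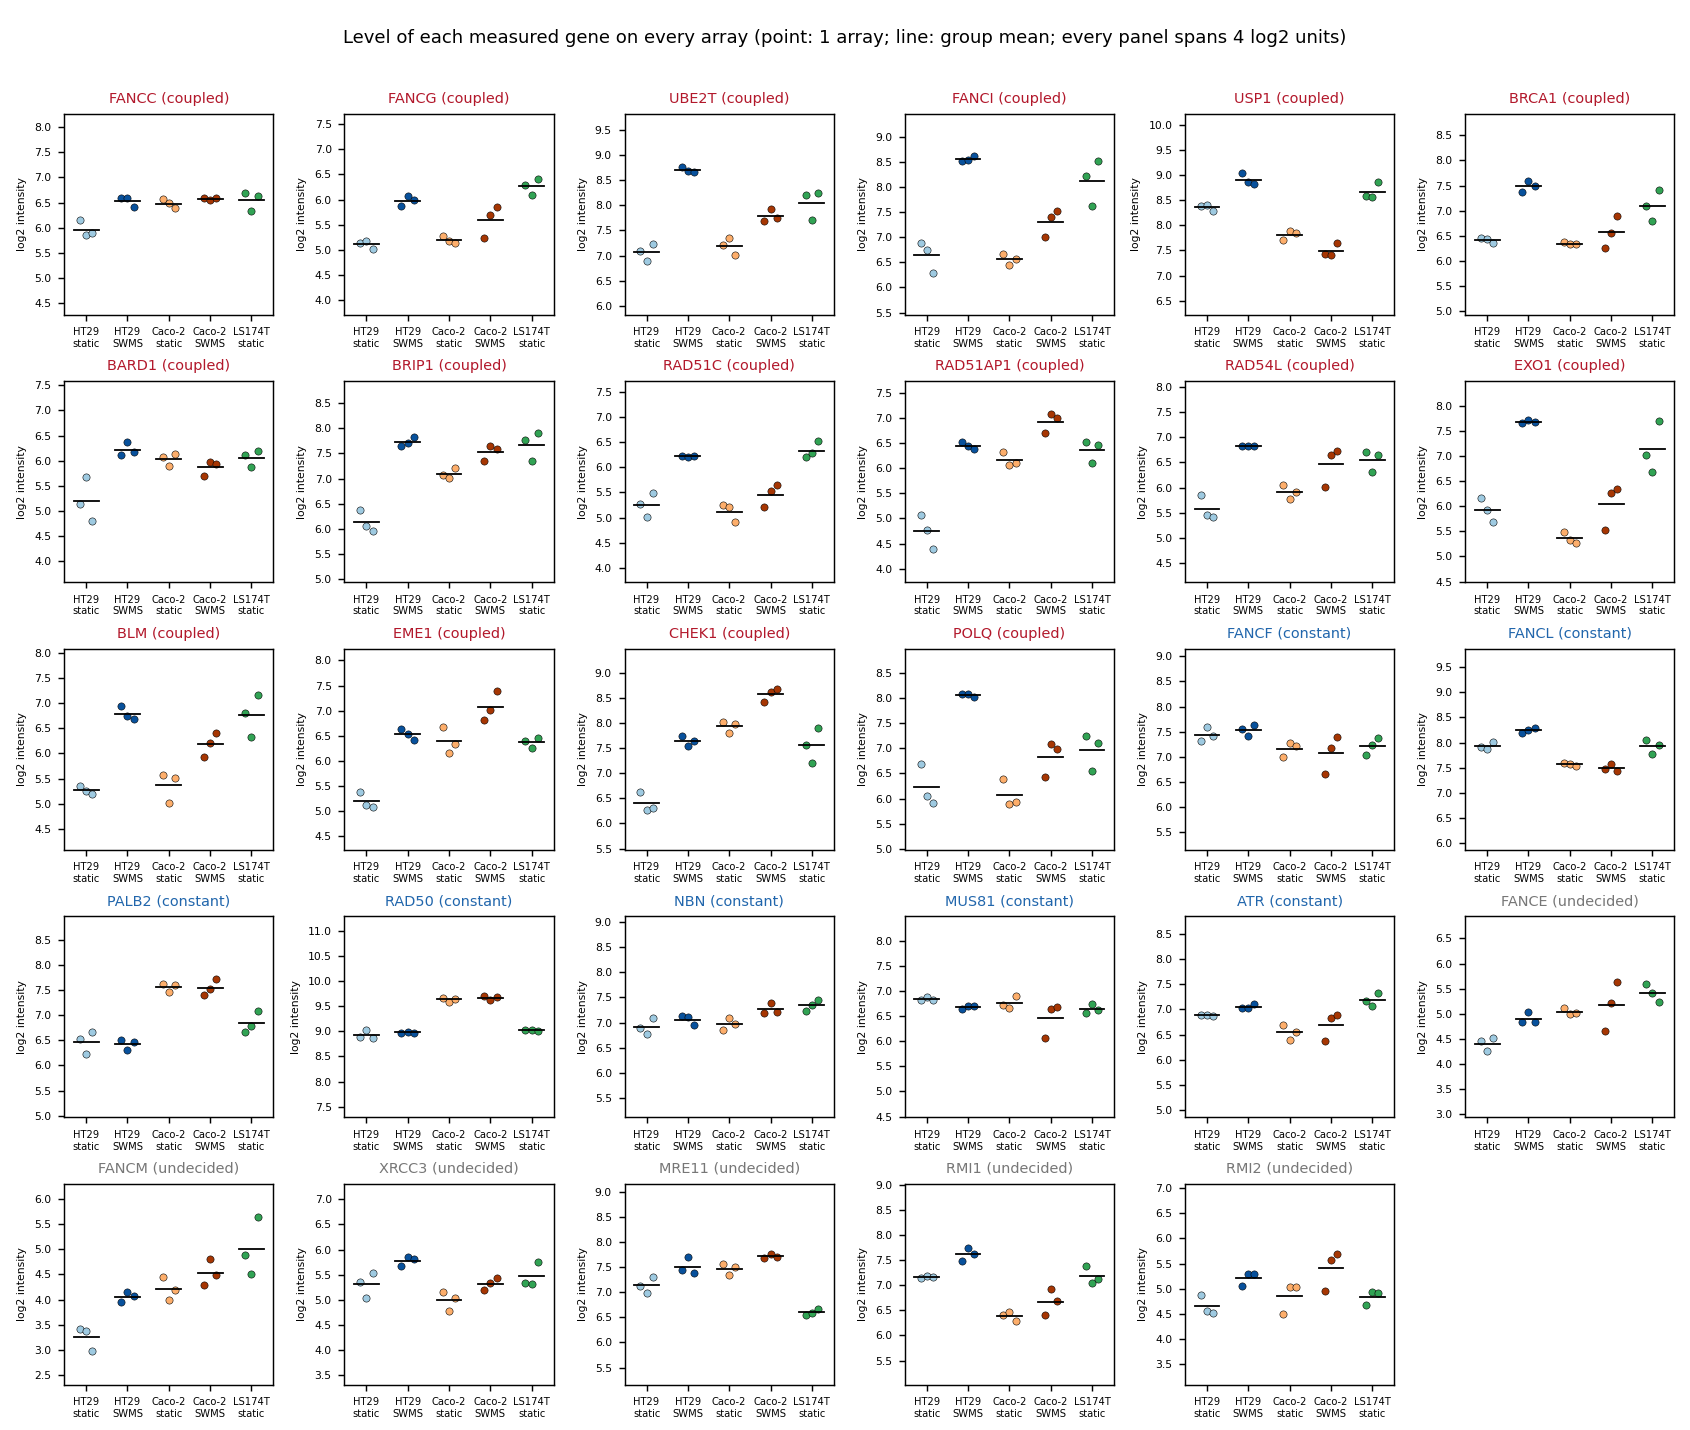
Log2 intensity (y axis) of each measured gene on every array, with 1 point per array, the group mean as a line and the 5 groups on the x axis, in panels of equal span. In the coupled panels the dark blue SWMS points of HT29-MTX-E12 lie above the light blue static points without overlap, while *PALB2* and *RAD50* differ by line and passed no test between conditions.

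In Caco-2 cells fewer members passed the test, and 27 of the 29 had a smaller difference than in HT29-MTX-E12 cells. The HT29-MTX-E12 minus the Caco-2 difference had a median of 0.47 over the members and 0.02 over all genes. The test between lines is given further below. Of the 29 members, 6 were higher under SWMS conditions (20.7%, against 3.02% of all genes) and 0 were lower (6.72% of all genes), with a median difference of 0.32. All 6 belong to the 16 coupled members, whose median here was 0.57, and none of the 13 constant and undecided members was called. The constant members had a median of -0.02 and a range of -0.31 to 0.29, and the undecided members had a median of 0.30. At an unadjusted p under 0.05, limma found 15 members, of which *USP1* was lower (22.9% of all genes passed), and IBMT gave the same 6 genes after adjustment. Of the cell cycle lists, 10 of 40 S phase genes (median 0.49) and 15 of 32 G2 and M phase genes (median 0.58) were higher in this line.

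The 6 genes called in Caco-2 cells were *BLM*, *RAD51AP1*, *FANCI*, *EME1*, *CHEK1* and *UBE2T*. *BLM* had 5.57, 5.01 and 5.52 under static and 5.94, 6.21 and 6.40 under SWMS conditions (0.82, SE 0.20, 1.76-fold, adjusted p = 0.0272). *RAD51AP1* had 6.33, 6.07 and 6.11 and then 6.69 to 7.07 (0.75, SE 0.17, adjusted p = 0.0172). For both genes the static and SWMS arrays did not overlap. *CHEK1* went from 8.03, 7.79 and 7.98 to 8.41, 8.61 and 8.68 (0.63, SE 0.16, adjusted p = 0.0244), *EME1* differed by 0.68 (SE 0.16, adjusted p = 0.0218) and *UBE2T* by 0.60 (SE 0.14, adjusted p = 0.0203). *FANCI* differed by 0.75 (SE 0.20, adjusted p = 0.0433), and the adjusted p was 0.0604 with the batch as a block.

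The Caco-2 count depended on single arrays. On the SWMS array of batch 1, which stood apart, 14 of the 16 coupled members had the lowest level of their group, and the mean of the S phase list was 6.87 there against 7.14 and 7.28 on the other SWMS arrays. The coupled members had a median difference of 0.03 in batch 1, 0.73 in batch 2 and 0.73 in batch 3. *EXO1*, for example, had 5.49, 5.33 and 5.26 under static and 5.53, 6.25 and 6.34 under SWMS conditions, with no call (adjusted p = 0.127). Without that array 11 members were called (4.06% of all genes were higher and 4.83% lower), with *EXO1*, *FANCG*, *POLQ*, *RAD54L* and *RMI2* added to the 6. The median was then 0.41 over the members, 0.68 over the coupled, 0.05 over the constant and 0.40 over the undecided ones, and 23 of 29 had a smaller difference than in HT29-MTX-E12 cells. Of the cell cycle lists, 15 S phase genes (median 0.60) and 20 G2 and M phase genes (median 0.70) were higher without it. Leaving out the SWMS array of batch 2 left 0 calls, leaving out the SWMS array of batch 3 or the static array of batch 2 or 3 left 1 each, and leaving out the static array of batch 1 left 4. The array's part in these differences was not tested beyond this.

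Whether a gene responded differently in the lines was tested by the difference of both responses. It was positive, that is larger in HT29-MTX-E12 cells, for 5 members (3.58% of all genes were called in this direction) and negative for 0 (0.911% of all genes). At an unadjusted p under 0.05, limma found 16 members (17.2% of all genes), and IBMT found 5 after adjustment. The 5 genes belong to the coupled class, but this contrast contains the HT29-MTX-E12 difference that defined it, so nothing is read from that. They were *BARD1* (1.18, SE 0.27, adjusted p = 0.0287), *FANCI* (1.16, SE 0.29, adjusted p = 0.0482), *BRIP1* (1.16, SE 0.21, adjusted p = 0.00806), *UBE2T* (1.03, SE 0.20, adjusted p = 0.012) and *USP1* (0.86, SE 0.15, adjusted p = 0.00466). The *FANCI* value was 0.0711 with the batch as a block. By way of comparison, all 32 G2 and M phase genes but 5 of 40 S phase genes were called in this contrast. Without the Caco-2 SWMS array of batch 1, 3 members were called, *BRIP1*, *UBE2T* and *USP1*.

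Among these 5 genes, *USP1* and *BARD1* went below 0 in Caco-2 cells. *USP1* had 7.70, 7.88 and 7.85 under static and 7.43, 7.41 and 7.65 under SWMS conditions, lower in all 3 batches, but the difference of -0.32 (SE 0.10, adjusted p = 0.0998) did not pass the test. *BARD1* had 6.08, 5.89 and 6.14 and then 5.70, 5.98 and 5.94, with overlap (-0.16, 95% interval -0.57 to 0.24), while its partner *BRCA1* had a difference of 0.22 (-0.13 to 0.57). *BRCA1* itself missed the test of the difference between lines (0.85, SE 0.23, adjusted p = 0.0731).

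The 3 lines were then compared under static conditions. Static Caco-2 cells exceeded static HT29-MTX-E12 cells in 11 members (18.4% of all genes) and lay below them in 3 (18.1% of all genes), the latter *FANCL*, *USP1* and *RMI1*. The largest differences were those of *CHEK1* (1.53, SE 0.16, 2.88-fold, adjusted p = 2.05e-06), *RAD51AP1* (1.43, SE 0.17, adjusted p = 1.35e-05) and *EME1* (1.20, SE 0.16, adjusted p = 4.4e-05). The difference in *CHEK1* was so large that static Caco-2 cells, at 7.93 ± 0.13 (SD, n = 3), lay above HT29-MTX-E12 cells under SWMS conditions, at 7.64 ± 0.09, without overlap of the arrays, although this pair was not tested. *RMI1* went the other way, at 6.39 ± 0.09 in Caco-2 and 7.16 ± 0.02 in HT29-MTX-E12 cells (-0.77, SE 0.14, adjusted p = 0.000425).

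LS174T cells had the highest static mean in 14 of the 16 coupled members, the exceptions being *CHEK1* and *EME1*. They also had it in 4 of the 6 undecided and 2 of the 7 constant members. Static HT29-MTX-E12 levels helped to define the coupled class, so its order of lines is not independent of that definition. Against static HT29-MTX-E12 cells, 19 members were higher (16.9% of all genes) and 1 was lower (15.1% of all genes). All 16 coupled members were among the higher ones, but this comparison uses the same static arrays that defined the coupled class. Against static Caco-2 cells, whose levels are no part of the difference that defined it although they entered its error, 16 members were higher (18.5% of all genes) and 3 lower (16.9% of all genes), and 11 of the 16 coupled members were higher and none lower. *EXO1* showed the largest gap, at 7.03, 6.68 and 7.68 in LS174T and 5.49, 5.33 and 5.26 in Caco-2 cells (1.77, SE 0.24, 3.42-fold, adjusted p = 3.95e-05). *FANCI* followed, at 8.21, 7.62 and 8.51 against 6.67, 6.45 and 6.56 (1.55, SE 0.20, 2.94-fold, adjusted p = 3.1e-05). The 5 coupled members that did not pass the test were *RAD51AP1* (0.19), *FANCC* (0.07), *BARD1* (0.03), *EME1* (-0.02) and *CHEK1* (-0.38).

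Some members that hardly moved under SWMS conditions differed clearly between lines. *RAD50* was at 9.66, 9.59 and 9.64 in static Caco-2, 8.88, 9.02 and 8.87 in static HT29-MTX-E12 and at 9.02 ± 0.01 (SD, n = 3) in LS174T cells, so that Caco-2 exceeded HT29-MTX-E12 by 0.71 (SE 0.06, 1.63-fold, adjusted p = 4.28e-07) and both Caco-2 conditions lay above every array of the other lines. *PALB2* was also highest in Caco-2 cells. It had 7.63, 7.46 and 7.59 in static Caco-2 and 6.53, 6.23 and 6.67 in static HT29-MTX-E12 cells. That difference was 1.08 (SE 0.14, 2.12-fold, adjusted p = 2.74e-05). LS174T cells had 6.84 ± 0.22, and their difference from static HT29-MTX-E12 cells did not pass the test (0.37, adjusted p = 0.0798).

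*MRE11* set LS174T cells apart. It was at 6.55, 6.59 and 6.66 there, below every array of the other lines, which ran from 6.99 to 7.77. The difference was -0.54 (SE 0.11, adjusted p = 0.00231) from static HT29-MTX-E12 and -0.86 (SE 0.11, 1.82-fold, adjusted p = 2.75e-05) from static Caco-2 cells. Its partner *NBN* went the other way, 0.43 above static HT29-MTX-E12 (SE 0.12, adjusted p = 0.0131) and 0.38 above static Caco-2 cells (SE 0.12, adjusted p = 0.0252). Of the 3 subunits of the MRN complex, *RAD50* thus set Caco-2 cells apart, and *MRE11* and *NBN* set LS174T cells apart in opposite directions. For *RAD50*, LS174T against static HT29-MTX-E12 cells did not pass the test (0.10, adjusted p = 0.331). For *NBN*, static Caco-2 against static HT29-MTX-E12 cells did not pass either (0.05, adjusted p = 0.812).

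**Figure D3:**
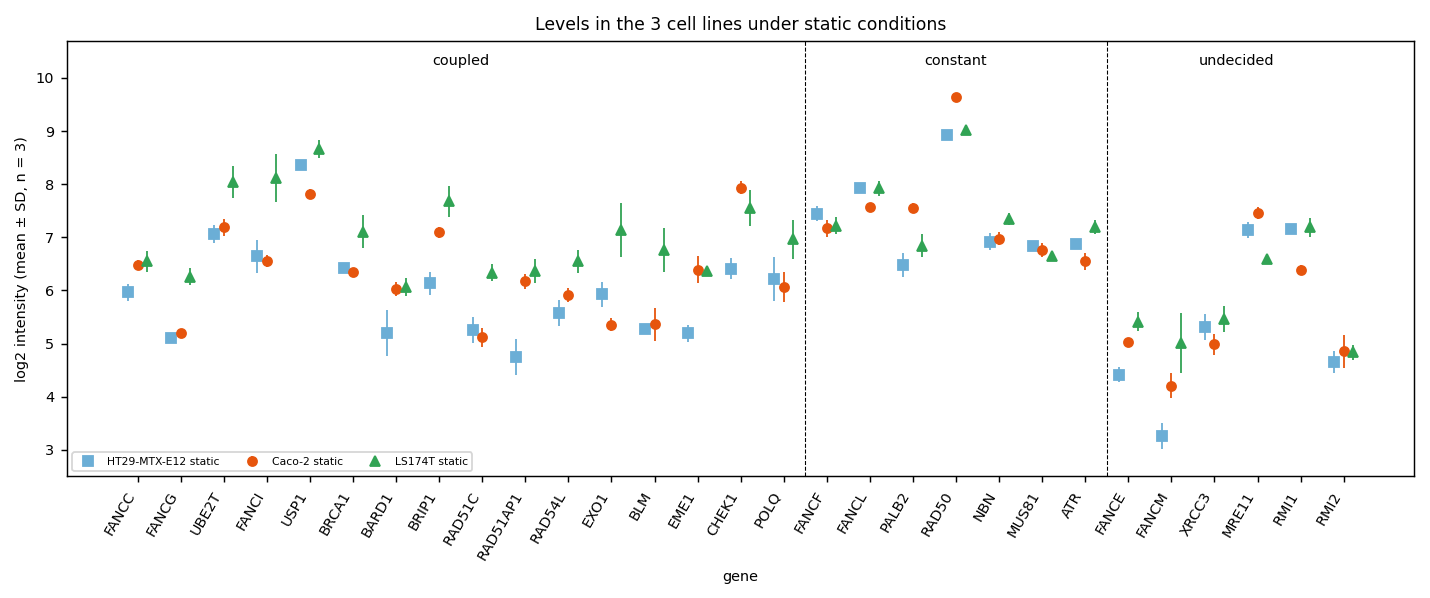
Static levels (log2 intensity, mean ± SD over 3 arrays, y axis) of each measured gene in HT29-MTX-E12 (squares), Caco-2 (circles) and LS174T cells (triangles), grouped by class along the x axis. The triangles are highest in 14 of the 16 coupled, 4 of the 6 undecided and 2 of the 7 constant genes. *MRE11* is the undecided gene in which they are lowest, at 6.60.

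Within groups, the members differed in how far they followed the cell cycle genes from array to array. For each gene, the deviations of the 15 arrays from their group means were correlated with those of the mean of the S phase list and of the G2 and M phase list, neither of which holds a member. The coupled members had a median Pearson r of 0.77 with the S phase list (range 0.32 to 0.94) and 0.60 with the G2 and M phase list. The constant members had medians of 0.38 and 0.04 and the undecided members 0.38 and 0.33, beside 0.08 with either list over all 22392 genes. Without the Caco-2 SWMS array of batch 1, the medians were 0.70 and 0.50 for the coupled, 0.08 and -0.16 for the constant, 0.11 and 0.01 for the undecided members and -0.01 and -0.02 over all genes, so those of the constant and undecided members moved more than those of the coupled ones. Arrays share their normalization and their batch, so these r values are a description.

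The highest r with the S phase list were those of *EXO1* (0.94), *BRCA1* (0.91), *CHEK1* (0.91) and *FANCI* (0.90). *RAD51AP1* (0.91), *POLQ* (0.83) and *RAD54L* (0.82) had the highest with the G2 and M phase list. The classes overlapped in this measure: *ATR*, constant under SWMS, had an r of 0.78 and *FANCM*, undecided, one of 0.80 with the S phase list, while *BARD1*, coupled, had 0.32. *RAD50* had an r of -0.31 with the S phase list, and of -0.20 without the Caco-2 SWMS array of batch 1. Part of the spread came from a few arrays, since 15 of the 16 coupled members were lowest on the LS174T array of batch 2 within that line, where the S phase list was also lowest (6.97 against 7.27 and 7.58), and 11 were highest on the static HT29-MTX-E12 array of batch 1.

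**Figure D4:**
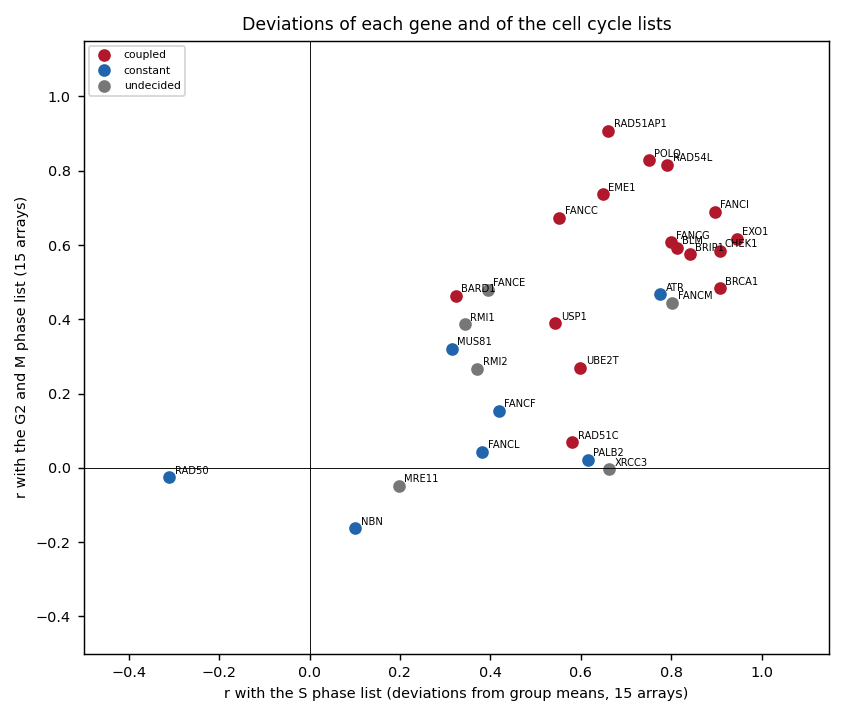
Pearson r over 15 arrays between the deviations of each measured gene from its group means and those of the S phase list (x axis) and the G2 and M phase list (y axis), with 1 point per gene coloured by class. Coupled genes lie mostly at the upper right (medians 0.77 and 0.60), and *RAD50* and *NBN* lie nearest the lower left.

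Other genes of these pathways, from a list of 63 of which 56 were measured, were also examined. In HT29-MTX-E12 cells 12 were higher and 0 lower under SWMS conditions (3.66% and 1.87% of all genes), with a median of 0.29. They were *PARPBP* (1.63), which restrains recombination, *HELLS* (1.39) and *DNA2* (1.35), which act in resection, *CLSPN* (1.34), *TIMELESS* (0.84) and *TOPBP1* (0.69) of the ATR checkpoint, the core complex subunit *FANCB* (1.29), *MCM8* (1.11) and *HROB* (0.68), which work together in repair synthesis, *FIGNL1* (1.08), *GEN1* (1.02), a resolvase, and the helicase *RECQL* (0.45). In Caco-2 cells the list had 2 higher genes, *HELLS* (1.10, adjusted p = 0.00171) and *DNA2* (0.90, adjusted p = 0.0142), and 0 lower. Of all genes, 3.02% were higher and 6.72% lower in this line. *FANCB* had a difference of 0.07 there (adjusted p = 0.938). Without the SWMS array of batch 1 the list had 6 higher genes (4.06% of all genes).

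Non-homologous end joining is the competing route that is open throughout the cycle. Of its 13 measured genes, 2 were higher in each line (3.66% of all genes in HT29-MTX-E12 and 3.02% in Caco-2 cells) and 0 lower. Its medians were 0.10 in HT29-MTX-E12 and 0.12 in Caco-2 cells. *PRKDC*, its DNA-dependent kinase, was higher by nearly the same amount in both, 0.55 (SE 0.09, adjusted p = 0.00244) and 0.59 (SE 0.09, adjusted p = 0.000865). *RIF1*, which shields broken ends from resection, was higher in HT29-MTX-E12 cells (0.43, SE 0.09, adjusted p = 0.0155) and had a difference of 0.08 in Caco-2 cells (adjusted p = 0.752). *XRCC5* was higher in Caco-2 cells (0.359, SE 0.066, adjusted p = 0.00384) and had a difference of 0.19 in HT29-MTX-E12 cells (adjusted p = 0.178).

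A further list of 14 genes held complexes that keep cell cycle promoters silent in resting cells, together with genes of cycle exit. In HT29-MTX-E12 cells 1 was higher, the pocket protein *RBL1* (1.21, SE 0.14, adjusted p = 0.000152), itself known to rise in cycling cells, and 0 were lower. Of all genes, 3.66% were higher and 1.87% lower there. In Caco-2 cells 4 fell and 0 rose, beside 6.72% and 3.02% of all genes. Without the SWMS array of batch 1, 3 fell and 1 rose (4.83% and 4.06% of all genes). Among the 4 that fell with all arrays were *CDKN1A* and *CDKN2B*, genes of cycle exit. *CDKN1A* was no longer called without that array, whereas *CDKN2B* was. The others of the 4 were the DREAM complex subunits *LIN37* (-0.87, SE 0.14, adjusted p = 0.00159) and *LIN54* (-0.59, SE 0.11, adjusted p = 0.0049). *LIN54* is the subunit that binds the CHR, and its difference between the lines passed the test (0.98, SE 0.16, adjusted p = 0.00332).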

How the data were processed

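The authors deposited robust multi-array average (RMA) values, log2 intensities that are corrected for background, quantile normalized and summarised for each of 53617 probe sets. They were used unchanged. By the platform's annotation 23866 probe sets name 1 gene, 1852 several and 27899 none, and a gene with several was represented by the one with the highest mean. No member had more than 1. Members and gene lists were chosen with earlier results of these data known.

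A linear model of the 5 group means over the 15 arrays was fitted with limma 3.58.1 in R 4.3.3, its variances moderated by eBayes with the trend option and 10 residual degrees of freedom. P-values are two-sided and adjusted over all probe sets by the method of Benjamini and Hochberg, and calls were made at an adjusted p under 0.05. Arrays have no read depth, and their number limits the precision. The fit was tested on simulated data.

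All 29 measured members are named. Of the other pathway genes those called in either line may be named, and of each further list the 4 with the smallest adjusted p in HT29-MTX-E12 cells. Outside this rule, *KRT20*, *CDX1*, *PDGFRB*, *CDKN1A* and *CDKN2B* are named for their values in Caco-2 or LS174T cells. The cell cycle, end joining, silencing and cycle exit, and marker lists were written by hand.

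The labels give each array a batch number, and the static and SWMS arrays of a line share these numbers. What a batch was is not stated there. Deviations from group means correlated by 0.04, 0.00 and 0.05 within batches in HT29-MTX-E12 and by -0.05, -0.10 and -0.01 in Caco-2 cells. The methods name no block, so the batch was a block only in an alternative. Further alternatives were array weights, no trend, IBMT (loess span 0.3), each line alone, probe sets under 4 left out, median centring and each array left out. Promoter windows came from RefSeq. Protein sequences were not used here.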

Additional observations from a re-analysis of the deposited data

Results flagged for a closer look

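The SWMS response differed between the lines, by the limma test of the difference, for 5 members, and each was larger in HT29-MTX-E12 cells. The differences of the responses on the log2 scale were 1.18 for *BARD1*, 1.16 for *FANCI*, 1.16 for *BRIP1*, 1.03 for *UBE2T* and 0.86 for *USP1*. In all 3 batches the response was larger in HT29-MTX-E12 cells for each of the 5 genes, with the smallest batch value at 0.61 for *BARD1* in batch 2. The call of *FANCI* was lost in 14 of the alternatives (adjusted p up to 0.114) and that of *BARD1* in 8 (up to 0.0786).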

How the results depend on the processing

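In HT29-MTX-E12 cells the 16 members called higher remained called with the batch as a block, array weights, no trend, IBMT, median centring and dim probe sets left out, and 14 of them remained with each line alone (*BARD1*, adjusted p = 0.051, and *FANCC* were lost). The batch as a block changed no other SWMS call than those of *FANCI* in Caco-2 cells and between lines. In Caco-2 cells, array weights gave 11 higher members and a fit of each line alone gave 1. The number lower in static Caco-2 than in static HT29-MTX-E12 cells was 5 with array weights. The causes were not tested. With each array left out in turn, the count higher was 15 to 17 in HT29-MTX-E12 and 0 to 11 in Caco-2 cells (0 without SWMS replicate 2, 11 without SWMS replicate 1), and 0 were lower in either line. The count of differing responses was 3 to 6. It was 3 without static replicate 3 or any SWMS array of HT29-MTX-E12 cells, and without static replicate 1 or 3 or SWMS replicate 1 of Caco-2 cells. *BLM*, *RAD51AP1*, *EME1*, *CHEK1* and *UBE2T* in Caco-2 cells each lost their call in 4 or 5 alternatives and *FANCI* in 14 (adjusted p up to 0.146). Gene lists, class medians and correlations without the Caco-2 SWMS array of batch 1 were added after seeing the data. No called value changed sign in any alternative. A second probe set per member could not be tried, since no member had one. Members near the lower end of the signal, such as *FANCM*, carry little information.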

Other observations

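Of the 3 members that lie on shared probe sets, the probe set of *RAD54B* and *FSBP* had mean levels of 5.19 under static and 5.92 under SWMS conditions in HT29-MTX-E12 cells (0.73, SE 0.17, adjusted p = 0.0282 in limma), and of 7.98 in LS174T cells. The probe set of *ATRIP* and *TREX1* differed by 0.53 in Caco-2 cells (SE 0.16, adjusted p = 0.0739). That of *RAD51D*, *RFFL* and *RAD51L3-RFFL* differed by 0.09 in HT29-MTX-E12 and -0.05 in Caco-2 cells. These values cannot be assigned to one gene of each probe set.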
